A study of Mus musculus with 4 samples.

Results

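The genes described here encode 10 enzymes that make phosphatidylcholine and phosphatidylethanolamine in mouse liver or compete for their substrates, and they were compared between male and female liver. They were chosen by symbol (Pemt, Chka, Chkb, Pcyt1a, Pcyt2, Chpt1, Cept1, Etnk1, Etnk2 and Chdh), and all 10 were found among 21827 gene entries. Total RNA came from livers of untreated CD-1 mice, an outbred stock, at 8 weeks of age, and males and females received no treatment and carried no engineered allele per the labels. Each sex was represented by 12 livers in 2 pools, with RNA of 6 livers in a pool, and all 4 pools went through a strand-specific preparation of poly-A RNA before sequencing. The deposited table gives a single value for each gene in each sex, so levels are the authors' values for a sex, no spread between pools can be given, and no new test was run. A gene was called higher in a sex at the authors' adjusted p under 0.05, in the direction of their normalized ratio.

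Phosphatidylcholine and phosphatidylethanolamine are the main phospholipids of cell membranes, and hepatocytes also secrete phosphatidylcholine into bile and on lipoproteins. In the CDP-choline and CDP-ethanolamine (Kennedy) pathways, a kinase phosphorylates choline or ethanolamine, a cytidylyl transferase activates the product with CTP, and a transferase joins it to diacylglycerol. Liver has a further route, in which PEMT methylates phosphatidylethanolamine to phosphatidylcholine with methyl groups from S-adenosylmethionine. Choline that is not phosphorylated can be oxidized to betaine in mitochondria, which starts with choline dehydrogenase (CHDH).

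Of the 10 genes, 5 were called by the authors' deposited table as different between the sexes, 3 higher in male liver (Chpt1, Etnk1 and Chdh) and 2 higher in female liver (Chka and Pemt). The background was 17.4% of the 13763 genes with a usable ratio, 7.21% male-higher and 10.2% female-higher. At a stricter threshold, an adjusted p under 0.01, 2 genes (Chpt1 and Etnk1) were male-higher and 1 (Chka) was female-higher. The backgrounds there were 4.16% and 6.05% of genes, and 10.2% in either direction. With a difference of at least 1.5-fold as well as an adjusted p under 0.05, the same 3 genes were called, against 13.4% of genes. At least 2-fold left none, against 7.88%, and an adjusted p under 0.10 gave 6 genes, against 23.3%. Among the 9737 of these that pass the authors' threshold for liver expression, a log2 RPKM (reads scaled by transcript length and by library size) of at least 1 in either sex, the background at 0.05 was 17.2%. All 10 genes passed that threshold. With 10 genes chosen by name, the count is a description. The called genes encode a choline kinase, an ethanolamine kinase, a final transferase, the methyltransferase and choline dehydrogenase. Neither cytidylyl transferase gene, Pcyt1a or Pcyt2, was called. The median log2 ratio of male over female liver was 0.02 for the 10 genes and -0.02 for all genes with a usable ratio.

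Over 250 upstream bases, the GC content was 52.8% for Pemt, 68% for Chka, 75.6% for Chpt1, 74.8% for Etnk1 and 69.2% for Chdh. Chdh had no matched transcript, and its sequence is not shown. The sequences upstream of the other 4 called genes are shown, because these genes were called and Pemt was lower in GC content. They are RefSeq sequences of build GRCm38.p6, read 5′ to 3′ on the gene's strand and ending just before the annotated start, and capitals mark a GC box (GGGCGG or its complement on the other strand, CCGCCC). The Pemt sequence is chr11:60037006-60037255 on the minus strand, the Chka sequence chr19:3851523-3851772 on the plus strand, and the Etnk1 sequence chr6:143166980-143167229 on the plus strand. The Chpt1 sequence, chr10:88504074-88504220 on the minus strand, was shortened to 147 bases so that it ends before an earlier annotated start of that gene.
Pemt (female-higher): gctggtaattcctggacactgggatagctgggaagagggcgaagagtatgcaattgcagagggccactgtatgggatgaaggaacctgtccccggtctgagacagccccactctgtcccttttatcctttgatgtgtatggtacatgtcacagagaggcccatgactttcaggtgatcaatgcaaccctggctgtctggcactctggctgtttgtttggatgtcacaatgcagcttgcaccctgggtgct
Chka (female-higher): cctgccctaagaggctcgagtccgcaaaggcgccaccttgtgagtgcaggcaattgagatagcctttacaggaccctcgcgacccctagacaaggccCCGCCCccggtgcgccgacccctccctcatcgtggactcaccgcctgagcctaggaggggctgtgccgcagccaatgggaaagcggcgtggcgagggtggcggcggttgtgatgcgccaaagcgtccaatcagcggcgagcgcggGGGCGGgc
Chpt1 (male-higher): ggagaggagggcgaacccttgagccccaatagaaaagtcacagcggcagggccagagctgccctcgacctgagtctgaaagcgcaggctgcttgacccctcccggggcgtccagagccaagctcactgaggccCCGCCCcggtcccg
Etnk1 (male-higher): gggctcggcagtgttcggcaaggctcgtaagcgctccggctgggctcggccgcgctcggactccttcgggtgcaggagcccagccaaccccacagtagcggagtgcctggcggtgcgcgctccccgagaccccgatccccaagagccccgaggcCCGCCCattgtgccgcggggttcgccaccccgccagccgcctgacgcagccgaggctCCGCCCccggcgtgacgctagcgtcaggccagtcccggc

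In the 250 bases before the RefSeq start, the Pemt sequence held 2 CG dinucleotides and no GC box, with a GC content of 52.8%. Over the 9 members found in the promoter table, Pemt had the fewest CG dinucleotides, and Chka held 24 and Etnk1 31. The median over all 32851 promoters of the table was 6. A GC box was present in the windows of the other 8 members and in 32.7% of all promoters of the same length. Some of these windows overlap exons of GENCODE transcripts, with 250 bases for Chkb, 147 for Chdh, 118 for Cept1 and 9 for Etnk1. The Chpt1 window also holds 103 bases after an earlier annotated start, and 1 of its 5 GC boxes lies in the part shown. GC boxes were thus present for the male-higher genes and for Chka, and absent for Pemt, the other female-higher gene. The letters TTCNNNGAA, the core bound by STAT5, were in none of the 9 windows and in 7.02% of all promoters, and the full palindromic estrogen response element was in none of the 9 and in 0.0639% of all promoters. The sterol regulatory element TCACNCCAC occurred in Pcyt1a alone among the 9, and in 1.05% of all promoters. All motifs were searched on both strands with overlapping matches allowed, and a match of letters is not a binding site. The entry for Pcyt2 was not found in the table.

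The final step of phosphatidylcholine synthesis showed the largest difference between the sexes among the 10 genes. Chpt1 (10, 87935558 to 87966715, mm9) encodes choline phosphotransferase, which joins CDP-choline to diacylglycerol. Its level was 183 RPKM in male and 95.1 RPKM in female liver (log2 RPKM 7.52 and 6.57). In the authors' deposited table it was 1.98-fold higher in male liver (log2 ratio 0.99, adjusted p = 2.45e-07). Approximate reads, implied by the level, the transcript length and the depth, were 10013 in male and 6806 in female liver. Counting alone then allows a male over female ratio of 1.87 to 1.99 (95% exact interval). This interval and those below cover counting error only, not differences between pools or mice, and reads without molecular identifiers are not independent molecules.

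Cept1 (3, 106305178 to 106350679, mm9) encodes the related enzyme that accepts both CDP-choline and CDP-ethanolamine, and its value lay on the female side. Its level was 39.5 RPKM in male and 49.2 RPKM in female liver. The authors' deposited table gives a 1.28-fold ratio toward female liver (log2 ratio -0.355, adjusted p = 0.0672), which missed the threshold. It was the uncalled member closest to the threshold, and Pemt, at an adjusted p of 0.033 in the authors' deposited table, the called member closest to it. The summed level of Chpt1 and Cept1 was 223 RPKM in male and 144 RPKM in female liver. Chpt1 made up 82.3% of that sum in male and 65.9% in female liver. The Chpt1 level was 4.64 times that of Cept1 in male and 1.93 times in female liver.

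**Figure D1:**
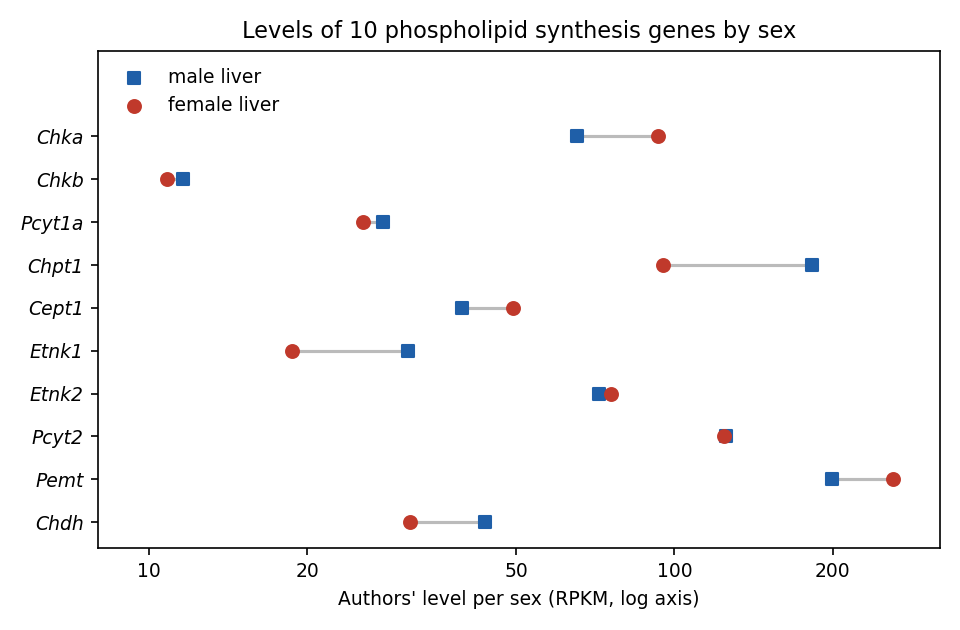
Level of each gene in male liver (blue squares) and female liver (red circles), in RPKM on a log axis, as the authors' value per sex with no error available. Chpt1 lies at 183 RPKM in male and 95.1 RPKM in female liver, whereas the points of Pcyt2 coincide at 125 and 124 RPKM.

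At the first step of the choline branch, the more abundant kinase gene was higher in female liver. Chka (19, 3851773 to 3894367, mm9) encodes choline kinase alpha, which phosphorylates choline and can also use ethanolamine. Its level was 65.3 RPKM in male and 93.2 RPKM in female liver (log2 RPKM 6.03 and 6.54). In the authors' deposited table it was 1.51-fold higher in female liver (log2 ratio -0.60, adjusted p = 0.00169). Implied reads were 1870 and 3496, and counting alone allows a female over male ratio of 1.35 to 1.51. The plain difference of levels was -0.51 on the log2 scale. The authors' normalized fold, 1.514, lies just above the upper bound of that interval, 1.511.

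Chkb (15, 89257546 to 89260339, mm9), the gene of choline kinase beta, was the least abundant of the 10 genes in both sexes, at 11.6 RPKM in male and 10.8 RPKM in female liver. It was not called (log2 ratio 0.11, adjusted p = 0.629 in the authors' deposited table). The choline kinase sum was 76.8 RPKM in male and 104 RPKM in female liver, of which Chka made up 84.9% and 89.6%. The total at this step was thus 1.35 times as high in female liver, whereas at the final transferase step it was 1.54 times as high in male liver. Neither ratio of sums has an error, since there is 1 value per sex.

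Between these steps lies the cytidylyl transferase, regarded as rate-limiting for the CDP-choline pathway. Pcyt1a (16, 32431007 to 32475151, mm9), which encodes its alpha form, was at 27.9 RPKM in male and 25.5 RPKM in female liver. It was not called (1.04-fold toward male liver, adjusted p = 0.791 in the authors' deposited table). Implied reads of 1500 and 1801 give a male over female ratio of 1.09, with a counting interval of 1.02 to 1.17. That interval rests on reads scaled by depth alone, without the authors' normalization. The plain difference of levels was 0.125 on the log2 scale, and the authors' normalized log2 ratio was 0.054, so the interval shows no male excess.

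The first step of the ethanolamine branch is shared by a pair of kinase genes that gave unlike values. Etnk1 (6, 143115750 to 143157066, mm9), which encodes ethanolamine kinase 1, was at 31.1 RPKM in male and 18.7 RPKM in female liver (log2 RPKM 4.96 and 4.23). In the authors' deposited table it was 1.65-fold higher in male liver (log2 ratio 0.73, adjusted p = 0.00016). Implied reads were 2248 and 1774, and the counting interval of the male over female ratio was 1.56 to 1.77. Etnk2 (1, 135260149 to 135276895, mm9), the gene of ethanolamine kinase 2, had the higher level of the pair in both sexes, at 71.8 RPKM in male and 75.7 RPKM in female liver. It was not called (log2 ratio -0.09, adjusted p = 0.658 in the authors' deposited table), with a counting interval of 0.893 to 1.01 for the male over female ratio. Etnk1 made up 30.2% of the summed ethanolamine kinase level in male and 19.8% in female liver. The sum itself was 103 RPKM in male and 94.5 RPKM in female liver, so the 1.65-fold difference of Etnk1 came to a ratio of 1.09 over both genes. Chka, whose enzyme can also use ethanolamine and which was female-higher, is not part of this sum.

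Pcyt2 (11, 120471402 to 120479250, mm9) encodes the cytidylyl transferase of the ethanolamine branch and showed the smallest ratio of the 10 genes. Its level was 125 RPKM in male and 124 RPKM in female liver (1.01-fold, adjusted p = 0.933 in the authors' deposited table). It was 4.50 times as abundant per length as Pcyt1a in male and 4.87 times in female liver.

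**Figure D2:**
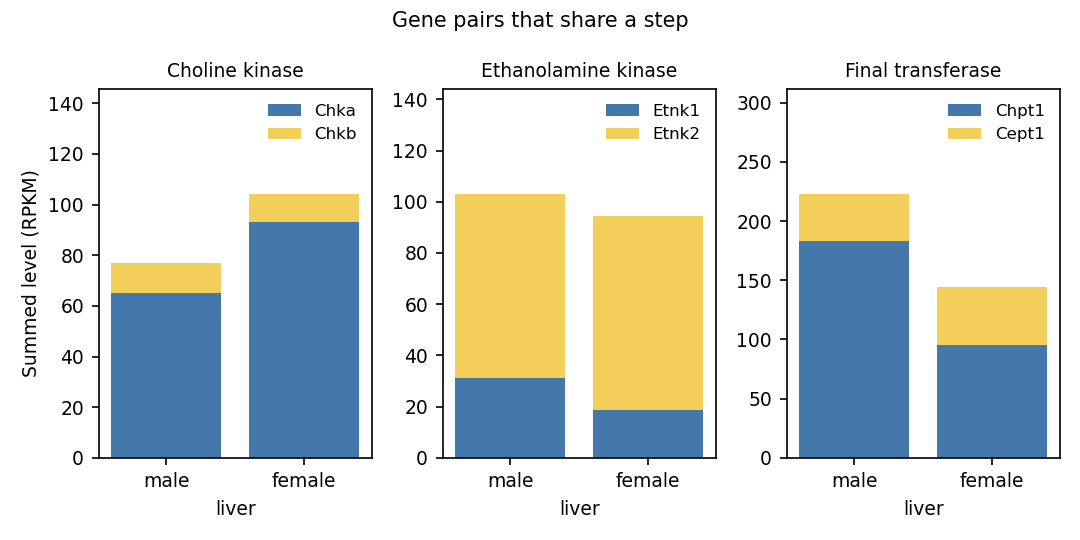
Summed level (RPKM) of the gene pairs that share a step, in male and female liver, with each bar divided by gene and no error available. The choline kinase bar is taller in female liver (104 against 76.8 RPKM), the final transferase bar in male liver (223 against 144 RPKM), and the ethanolamine kinase bars reach 103 and 94.5 RPKM.

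The gene of the methylation route was higher in female liver. Pemt (11, 59784119 to 59850341, mm9), which encodes phosphatidylethanolamine N-methyltransferase, was the most abundant of the 10 genes in both sexes, at 199.6 RPKM in male and 261 RPKM in female liver (log2 RPKM 7.64 and 8.03). In the authors' deposited table it was 1.33-fold higher in female liver (log2 ratio -0.41, adjusted p = 0.033). Implied reads were 2251 and 3854, and the counting interval of the female over male ratio was 1.24 to 1.38. At an adjusted p under 0.01, Pemt was not called. Its adjusted p is also larger than the 0.026 that the authors' deposited table gives to genes such as Mpo. Mpo is at the lowest value of the scale in both sexes, with a log2 ratio of 0. Pemt and Chpt1 had nearly equal levels in male liver, with a ratio of 1.09, and Pemt was 2.75 times as abundant as Chpt1 in female liver.

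The gene of the first enzyme of choline oxidation was higher in male liver. Chdh (14, 30822209 to 30853652, mm9), which encodes choline dehydrogenase, was at 43.6 RPKM in male and 31.4 RPKM in female liver (log2 RPKM 5.45 and 4.97). In the authors' deposited table it was 1.37-fold higher in male liver (log2 ratio 0.45, adjusted p = 0.0182). Choline kinase and choline dehydrogenase use the same substrate, and the levels of Chka and Chdh differed between the sexes in opposite directions. The Chka level was 2.96 times that of Chdh in female liver, and in male liver it was 65.3 against 43.6 RPKM. No transcript length was matched for Chdh, Chkb and Pcyt2, so no implied reads are given for these genes.

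**Figure D3:**
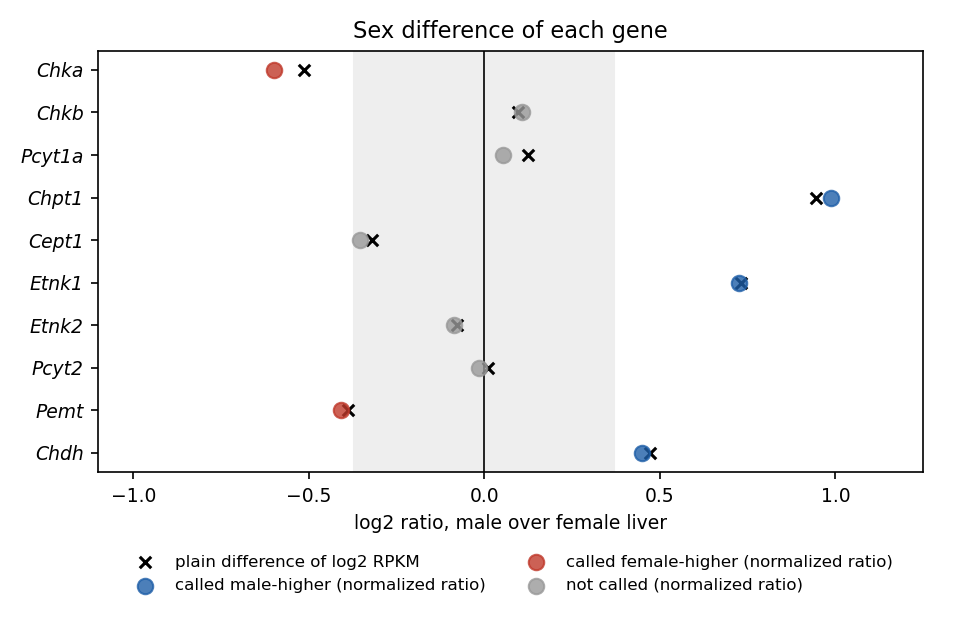
Log2 ratio of male over female liver for each gene, as the authors' normalized ratio (filled circles, blue or red where called) and as the plain difference of log2 RPKM values (crosses). The grey band spans ratios under 0.37 in either direction, within which no gene of similar level was called, and Cept1, at -0.355, lies just inside it.

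The 5 uncalled genes were read against the sizes of difference that were called at similar levels. The 10 genes span mean log2 RPKM values from 3.49 to 7.83, and 4167 liver-expressed genes lie in that span, of which 14.2% were called. None of 3187 genes with an absolute log2 ratio under 0.3 was called. Between 0.3 and 0.4 the share was 7.48% of 361 genes, between 0.4 and 0.5 it was 78.0% of 227 genes, and between 0.5 and 0.6 it was 96.6% of 117 genes. The smallest called ratio in the span was 0.37 on the log2 scale, or 1.29-fold. Observed ratios as small as those of Pcyt1a, Pcyt2, Chkb and Etnk2 were thus called for no gene in the span. Genes were grouped by observed ratio, so which true differences could be detected cannot be read from these shares. Equal levels in the sexes are not shown for these genes.

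**Figure D4:**
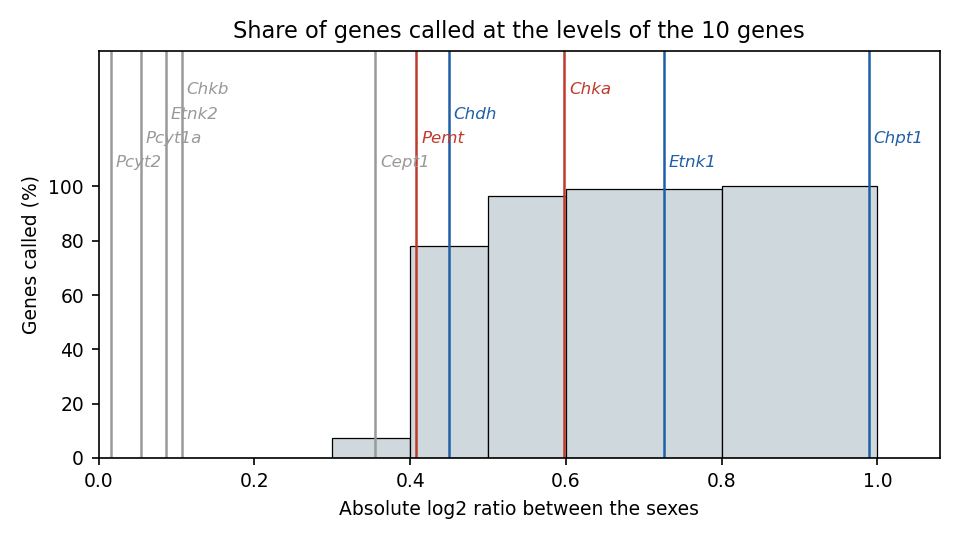
Percentage of liver-expressed genes called (bars) by absolute log2 ratio between the sexes, for genes within the level range of the 10 genes, with vertical lines at the ratio of each gene (blue male-higher, red female-higher, grey not called). The share rises from 7.48% between 0.3 and 0.4, where Cept1 lies, to 78.0% between 0.4 and 0.5, where Pemt and Chdh lie.

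The order of the levels differed between the sexes only by swaps of neighbours in rank. Pemt was highest and Chkb lowest in both. Chpt1 ranked 2 in male and 3 in female liver, Etnk1 ranked 8 and 9, and Chka ranked 5 and 4. These genes swapped places with Pcyt2, Pcyt1a and Etnk2, in that order, and Chdh and Cept1 also swapped. The lowest level was 17.2-fold under the highest in male and 24.1-fold in female liver. Levels are per length, and which neighbours in this order differ beyond their spread cannot be said without values per pool.

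Other genes of choline, ethanolamine and phospholipid metabolism were taken from 10 lists with 93 genes, 85 of which had a usable ratio. Of the 85, 14 were male-higher and 10 female-higher in the authors' deposited table, or 28.2% called against the background of 17.4%. The lists were written with earlier results of these data known, and their counts are a description.

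Of 5 further genes of the Kennedy pathways and of enzymes that use their phosphorylated intermediates, 3 were male-higher and none was female-higher in the authors' deposited table, against backgrounds of 7.21% and 10.2%. Their median log2 ratio was 0.62, and 1 of the 3 calls rests on few reads. Phospho1, a phosphatase of phosphocholine and phosphoethanolamine, was at 7.63 RPKM in male and 3.23 RPKM in female liver (2.28-fold, adjusted p = 1.37e-05 in the authors' deposited table). Agxt2l1, which encodes the lyase that breaks down phosphoethanolamine and is now named Etnppl, was at 69.5 RPKM in male and 48.8 RPKM in female liver (1.54-fold, adjusted p = 0.00113 in the authors' deposited table). Pcyt1b, the beta form of choline-phosphate cytidylyl transferase, was scarce, with 0.347 RPKM in male and 0.0558 RPKM in female liver. The authors' deposited table gives a 7.61-fold difference toward male liver (adjusted p = 0.0011) on about 19 and 4 implied reads, and counting alone allows a ratio of 2.07 to 25.1. Ept1 (now Selenoi), the ethanolamine phosphotransferase gene, was not called, at 20.2 RPKM in male and 21.4 RPKM in female liver.

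Of 12 genes that make or use the methyl donor S-adenosylmethionine or recycle its product, 2 were female-higher and 1 male-higher in the authors' deposited table (median log2 ratio -0.09), against backgrounds of 10.2% and 7.21%. Mat1a, the S-adenosylmethionine synthetase of hepatocytes, was at 725 RPKM in male and 1405 RPKM in female liver (1.98-fold, adjusted p = 1.39e-07 in the authors' deposited table). Mat2a, a further S-adenosylmethionine synthetase gene, was at 15.7 RPKM in male and 15.9 RPKM in female liver, and Mat2b, the gene of its regulatory subunit, at 21.6 and 20.5 RPKM, and neither was called. Nnmt, which uses the same methyl donor to methylate nicotinamide, was at 2.55 RPKM in male and 23.3 RPKM in female liver (8.46-fold, adjusted p = 4.97e-21 in the authors' deposited table). Ahcyl2, a relative of the S-adenosylhomocysteine hydrolase gene, was 1.64-fold higher in male liver (adjusted p = 0.000963 in the authors' deposited table). Gnmt and Ahcy, which consume S-adenosylmethionine and its product, were not called. In choline uptake and betaine use, 1 of 10 genes was called, Bhmt, the betaine methyltransferase gene, at 280.1 RPKM in male and 362 RPKM in female liver (1.37-fold, adjusted p = 0.0142 in the authors' deposited table). The Bhmt enzyme uses betaine, the product of the oxidation that starts with CHDH, and Bhmt and Chdh were called in opposite directions.

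Precursor branches were mixed, and the backgrounds for their counts were 7.21% male-higher and 10.2% female-higher. Ptdss1, a phosphatidylserine synthase gene, was 1.35-fold higher in female liver (adjusted p = 0.0486 in the authors' deposited table), as 1 of 3 genes of the phosphatidylserine route. Of 11 genes that make diacylglycerol, 2 were called in each direction in the authors' deposited table. Agpat5 and Agpat9 (now Gpat3), acyltransferase genes, were higher in female liver, with log2 ratios of -0.625 and -0.589 (adjusted p = 0.00549 and 0.00596 in the authors' deposited table). Lpin2, a phosphatidate phosphatase gene, was at 67.4 RPKM in male and 43.4 RPKM in female liver (log2 ratio 0.58, adjusted p = 0.0024 in the authors' deposited table). In the CDP-diacylglycerol branch, 1 of 6 genes was called each way, and both act in cardiolipin synthesis. Ptpmt1, a phosphatase gene, was 1.54-fold higher in male liver and Crls1, the cardiolipin synthase gene, 1.36-fold higher in female liver (adjusted p = 0.00331 and 0.0238 in the authors' deposited table).

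Of 7 transfer and secretion genes, 3 were male-higher and none was female-higher in the authors' deposited table (median log2 ratio 0.29), against backgrounds of 7.21% and 10.2%, and none of the 3 passed an adjusted p of 0.01. Pctp, the phosphatidylcholine transfer protein gene, was at 6.95 RPKM in male and 3.44 RPKM in female liver (1.65-fold, adjusted p = 0.0415 in the authors' deposited table). Its plain difference of log2 RPKM values was 1.01, against a normalized log2 ratio of 0.72, so the size of the difference is uncertain. Pltp, a plasma phospholipid transfer protein gene, and Atp8b1, a flippase gene of the bile canaliculus, were also male-higher, by 1.42-fold and 1.32-fold (adjusted p = 0.0341 and 0.0376 in the authors' deposited table). Abcb4, which moves phosphatidylcholine into bile, was at 61.0 RPKM in male and 62.9 RPKM in female liver and was not called.

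Phospholipid breakdown was mixed, with 3 of 22 genes called in each direction in the authors' deposited table. The backgrounds for this list and those below were 7.21% male-higher and 10.2% female-higher. Lipc, the hepatic lipase gene, was at 103.6 RPKM in male and 145 RPKM in female liver (1.42-fold, adjusted p = 0.0077 in the authors' deposited table). Gdpd5, a glycerophosphodiester phosphodiesterase gene, was female-higher (adjusted p = 0.024 in the authors' deposited table) on about 8 implied reads in male and 24 in female liver. Enpp6, a choline-specific phosphodiesterase gene, was male-higher (adjusted p = 0.00234 in the authors' deposited table) on about 18 and 2 implied reads, so the size of either difference is uncertain. None of 6 genes of acyl chain remodelling was called, and the most abundant of them, Lpcat3, was at 33.9 RPKM in male and 32.1 RPKM in female liver. Of 3 genes of sphingomyelin synthesis, which takes its head group from phosphatidylcholine, Sgms2 was 1.57-fold higher in male liver (adjusted p = 0.00112 in the authors' deposited table).

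**Figure D5:**
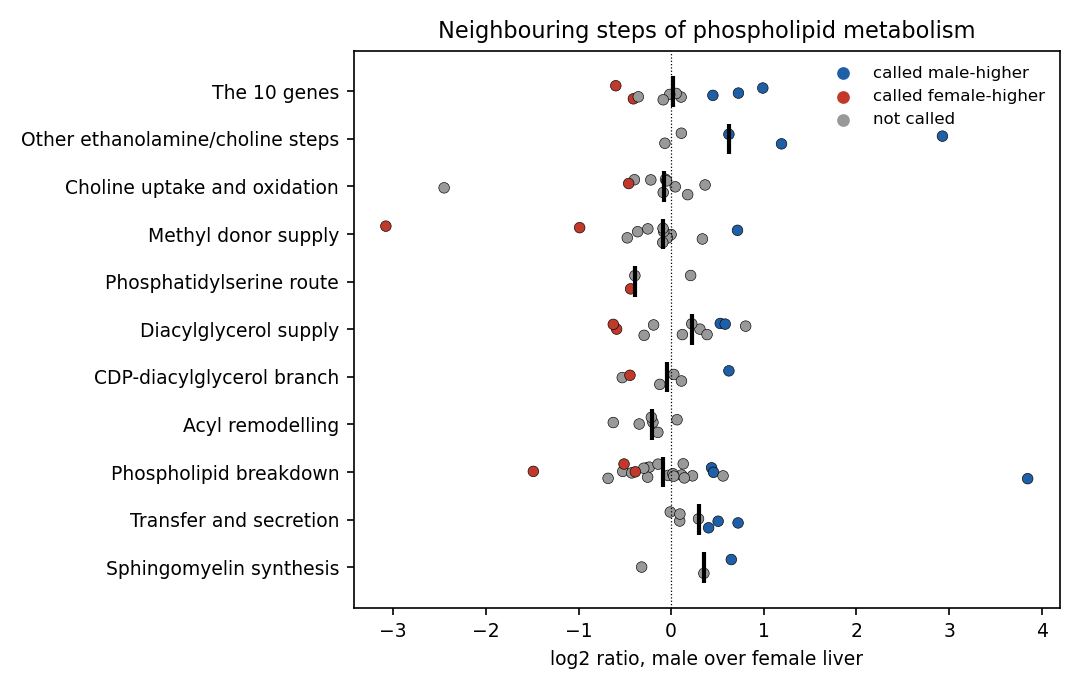
Log2 ratio of male over female liver for the 10 genes (top) and for genes of 10 neighbouring lists, with 1 point per gene (blue male-higher, red female-higher, grey not called) and a vertical bar at each median. The medians run from -0.39 for the phosphatidylserine route to 0.62 for the other choline and ethanolamine steps, and the points farthest right, Enpp6 and Pcyt1b, rest on few reads.

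The table as a whole implied 11.2 M reads for male and 14.7 M for female liver. Xist was higher in female liver and 4 of 4 Y-linked genes in male liver, as the labels say. Hepatocyte markers were abundant in both sexes, and Alb was called female-higher and Apoa1 male-higher. In bulk RNA, a different share of cells of a type and a different RNA level per cell cannot be told apart. Among markers of other cells, 3 of 5 Kupffer cell genes and 3 of 5 stellate cell genes were female-higher in the authors' deposited table. The backgrounds for these and the marker counts below were 10.2% female-higher and 7.21% male-higher. Summed levels in male and female liver were 132 against 167 RPKM for Kupffer cell genes and 91.9 against 123 RPKM for stellate cell genes. The sinusoidal endothelial sum was 93.9 RPKM in male and 106 RPKM in female liver, with 1 of 5 genes called. The cholangiocyte sum was 46.5 and 31.5 RPKM, with 1 of 5 genes called in each direction. Of 4 pancreatic acinar genes, Cpa1 and Pnlip were male-higher at 2.98 and 4.97 RPKM in male liver, Cela1 was at 38.9 RPKM in male and 30.5 RPKM in female liver and was not called, and Prss1 was at the lowest value of the scale in either sex. Summed lymphocyte, neutrophil and adipocyte markers reached at most 8.79 RPKM in either sex. The part of these markers in the differences of the 10 genes was not tested.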

How the data were processed

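Poly-A-enriched, strand-specific RNA of 4 liver pools was sequenced, per the labels' protocols. The submitters' processing notes name Bowtie, edgeR and the genome build mm9 and say nothing of their versions or use. The counting of reads per gene, and any use of strand in it, are not given in the sources used here. Per the file headers, the deposited table holds the authors' log2 RPKM per sex, their normalized log2 male over female ratio, the linear ratio, a signed fold change (a score that the authors made negative where female liver is higher), an adjusted p-value and a flag for liver-expressed genes. The planned count test could not be run, because values per pool are not used here, and the authors' adjusted p-value (threshold 0.05) took its place. p-values adjusted over a list alone cannot be given, since unadjusted values are not in the columns used.

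Genes at the lowest value of the scale, the floor, in male and female liver alike (6590), above it in 1 sex with the ratio set to 1 (1460, a whole multiple of the floor within 0.3%) or without a level and ratio (14) were left out of calls. Floor genes such as Mpo, Plin1 and Lep have a log2 ratio of 0 but an adjusted p of 0.026 in the authors' deposited table. Some called genes, among them Pemt, Ptdss1, Pctp, Pltp and Atp8b1, have a larger adjusted p than these floor genes. Depth was implied from 1058 olfactory receptor genes at the floor, taking the floor as 1 read. Transcript lengths were matched by RefSeq accession to GENCODE vM21 for 7 of the 10 genes, and 74.2% of 4668 floor genes had an implied length within 2% of the matched one, so implied reads are approximate. Intervals are 95% exact (Clopper-Pearson) intervals of the ratio of reads scaled by implied depth. The calculations were tested on simulated data.

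All 10 genes are named. From each further list, up to 3 called genes with the largest ratio were named, or the most abundant where none was called. Ept1, Mat2a, Mat2b, Gnmt, Ahcy and Abcb4, and the cell type markers given by name, fall outside that rule and were chosen after their values were seen. The genes and lists were chosen with earlier results of these data known. Of the listed pathway genes, 6 were not found by symbol. Coordinates of genes are those of the table (mm9) with a 1-based start. For upstream sequence, the annotated start nearest to that of the matched transcript was used, or the first start where none was matched. Python 3.11.15, numpy 2.4.6, pandas 2.3.3 and scipy 1.17.1 were used. Beside the 9 marker lists used, 1 further list that had been written is not reported here.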

Additional observations from a re-analysis of the deposited data

How the results depend on the processing

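At an adjusted p under 0.01, 2 of the 10 genes were male-higher (Chpt1 and Etnk1) and 1 was female-higher (Chka), against 3 and 2 at 0.05, and the same counts of 2 and 1 resulted when a difference of at least 1.5-fold was also required. With at least 2-fold, 0 were male-higher and 0 female-higher, since Chpt1 was 1.98-fold higher. At an adjusted p under 0.10, Cept1 joined the female-higher genes, which made 3. Taking the direction from the plain difference of log2 RPKM values, or requiring a log2 RPKM of at least 1, left the counts at 3 and 2. Over the neighbouring lists, the 14 male-higher and 10 female-higher genes became 9 and 5 at an adjusted p under 0.01, and 8 and 5 with at least 1.5-fold. Pcyt2 changed sign, to 0.011 by the plain difference from -0.016, and was not called. The median log2 ratio of the 10 genes was 0.05 by the plain difference.

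Values per pool were not used here, so leaving out a pool, a count test and its alternatives were not run. No paired analysis was possible because the table holds 1 value per sex and the labels give no replicate numbers that would pair a male with a female pool. Depth does not limit the called genes, which have at least 1774 implied reads in each sex where a length was matched. It does limit Pcyt1b, Gdpd5 and Enpp6.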

Other observations

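Genes that overlap one of the 10 genes, or lie within 2 kb of it, were looked up because reads of overlapping genes on opposite strands cannot be told apart if strand was not used in counting. Chpt1 overlaps the end of Sycp3, a gene of meiotic chromosomes on the other strand, by 424 bases. In female liver Sycp3 was at the floor, the lowest value of the scale, and at 8 times the floor in male liver, at 0.634 RPKM, against 183 RPKM for Chpt1. Its adjusted p was 0.0332 in the authors' deposited table, and it was not called because its ratio is set to 1 there. Chdh overlaps the end of Cacna1d by 528 bases, and Cacna1d was at 0.451 RPKM in male and 0.422 RPKM in female liver. Cept1 overlaps the end of Dennd2d by 771 bases, with Dennd2d at 4.63 and 5.82 RPKM (adjusted p = 0.251 in the authors' deposited table), and Chkb overlaps C730034F03Rik by 320 bases, at 0.834 and 0.955 RPKM.

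Among neighbours with a usable ratio, only Il17rb was called, beside a background of 17.4% of all genes with a usable ratio. Its direction was that of its member, Chdh. Il17rb, a receptor subunit gene for interleukin 17 family cytokines, starts 126 bases from Chdh on the other strand. It was at 3.97 RPKM in male and 2.50 RPKM in female liver (1.57-fold, adjusted p = 0.0305 in the authors' deposited table), beside 1.37-fold for Chdh. Dram2, which starts 65 bases from Cept1 on the other strand, was at 50.2 and 53.9 RPKM and was not called. Cpt1b, which follows Chkb on the same strand after 1252 bases, was at 0.645 and 0.493 RPKM and was not called. The other neighbours, Tcirg1 beside Chka, Osta beside Pcyt1a, Anapc11 and Npb beside Pcyt2, and Sox13 beside Etnk2, lie on the other strand without overlap and were not called.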
